A study of Mus musculus with 30 samples.

Results

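The genes described here are 40 genes of the mouse DNA repair machinery, taken from a list of symbols. They were matched to a table of liver counts for 51826 Ensembl gene identifiers. All 40 were found and all 40 passed the filter on low counts, so none was lost before testing. RNA came from the left liver lobe of male mice, of a strain written C57BL16 in the labels. One arm received 0.2 Gy of 600 MeV/n 56Fe, a heavy charged particle of the kind met in space radiation, and the other arm received no irradiation. Collection took place in month 1 (day 30), month 2 (day 60), month 4 (day 120), month 9 (day 270) and month 12 (day 360), with 3 samples called biological replicates in each of the 10 groups. No genetic change was carried by either arm, as far as the labels say.

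DNA repair rests on several pathways that recognise different lesions. Double-strand breaks, which densely ionising particles are known for, are sensed by the Mre11a, Rad50 and Nbn complex, signalled by the kinases Atm and Atr, and mended by end joining or by homologous recombination. Small base lesions go through base excision repair, bulky adducts through nucleotide excision repair, and replication errors through mismatch repair. Much of the response to damage is carried by protein modification, and the liver is a tissue of mostly resting cells in which end joining needs no replicated sister copy.

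Sequence before the start site is shown for 5 genes on which the results below turn: Xrcc3, whose difference between arms varied with month, Xrcc5 and Parp1, which were higher at later months, and Ercc5 and Ercc6, which were lower. Each run is the 250 bases before the RefSeq start on GRCm38.p6, 5′ to 3′ on the gene's strand. Capitals mark CCAAT (the CCAAT box), CACGTG (the E-box) and TTTGAA (the cell cycle homology region), on either strand.
Xrcc3 (chr12:111813880-111814129, minus strand): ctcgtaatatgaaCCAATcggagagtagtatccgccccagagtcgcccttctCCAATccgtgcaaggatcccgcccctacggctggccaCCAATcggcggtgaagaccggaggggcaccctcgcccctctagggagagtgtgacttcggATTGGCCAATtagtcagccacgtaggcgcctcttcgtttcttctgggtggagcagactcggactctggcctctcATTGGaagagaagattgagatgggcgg
Xrcc5 (chr1:72307171-72307420, plus strand): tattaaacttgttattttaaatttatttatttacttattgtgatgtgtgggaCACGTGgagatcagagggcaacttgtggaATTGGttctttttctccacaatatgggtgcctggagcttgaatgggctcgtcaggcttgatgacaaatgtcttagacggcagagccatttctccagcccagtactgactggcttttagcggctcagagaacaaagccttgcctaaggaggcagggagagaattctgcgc
Parp1 (chr1:180568641-180568890, plus strand): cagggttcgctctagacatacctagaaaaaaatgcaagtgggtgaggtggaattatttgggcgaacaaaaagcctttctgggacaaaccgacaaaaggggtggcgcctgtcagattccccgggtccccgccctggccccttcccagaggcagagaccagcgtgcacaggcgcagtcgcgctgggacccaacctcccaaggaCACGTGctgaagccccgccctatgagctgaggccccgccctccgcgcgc
Ercc5 (chr1:44147494-44147743, plus strand): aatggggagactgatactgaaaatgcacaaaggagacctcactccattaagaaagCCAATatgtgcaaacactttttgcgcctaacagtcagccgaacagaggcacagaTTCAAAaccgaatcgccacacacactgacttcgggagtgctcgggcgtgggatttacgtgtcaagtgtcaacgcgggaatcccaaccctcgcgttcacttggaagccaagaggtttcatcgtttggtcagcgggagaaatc
Ercc6 (chr14:32513271-32513520, plus strand): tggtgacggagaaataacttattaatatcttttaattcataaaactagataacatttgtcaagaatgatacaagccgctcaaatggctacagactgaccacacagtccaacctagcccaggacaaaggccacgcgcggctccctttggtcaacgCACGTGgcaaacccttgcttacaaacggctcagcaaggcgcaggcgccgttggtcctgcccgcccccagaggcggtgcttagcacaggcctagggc
The Xrcc3 run held 6 CCAAT matches. An E-box was present before Xrcc5 and Parp1 and also before Ercc6, which moved the other way. Over windows that also take in 50 bases after the start, 31 of the 40 genes had a RefSeq entry. A gene with several windows (Lig1, Lig4 and Mutyh) was counted if any of them held the letters, whereas the shares below are of single windows. CCAAT stood in 17 of these 31, against 37.4% of 32817 windows of all genes. CACGTG stood in 7 of 31, against 7.15%. TTTCCCGC, a form of the E2F site, stood in 3 of 31 (Brca2, Msh6 and Xrcc6), against 1.07%, and its other form TTTGGCGC in 0 of 31, against 0.515%. TTTGAA stood in 1 of 31 (Ercc5), against 17.9%. These matches are a description of letters and were not tested.

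The repair genes were low to moderate transcripts of the liver. Levels are CPM (counts scaled to a common library size), adjusted by TMM library factors, and between genes they are compared as CPM per kilobase of exon. Together the 40 genes took 0.0773% to 0.102% of the counts of a library. Their median was 2.05 CPM per kilobase, against 2.67 for 14910 protein-coding genes tested, and 17 of the 40 lay above that value. Ddb1, the adaptor of a ubiquitin ligase that also recognises ultraviolet lesions, stood far above the others at 44.8 ± 14.2 CPM per kilobase (SD over 30 libraries), and its lowest library was above the highest library of the next gene. Parp1, the sensor of strand breaks, followed at 11.2 CPM per kilobase, then Xrcc5 (Ku80) at 10.97 and Nbn at 9.89. The ranges of these neighbours overlapped, as did those of every other pair of neighbours in the order. At the bottom stood Fanca at 0.310 CPM per kilobase, the adenine glycosylase Mutyh at 0.196 and Fancd2 at 0.185. These last are near the limit of the depth: Mutyh had between 1 and 15 counts in a library.

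**Figure D1:**
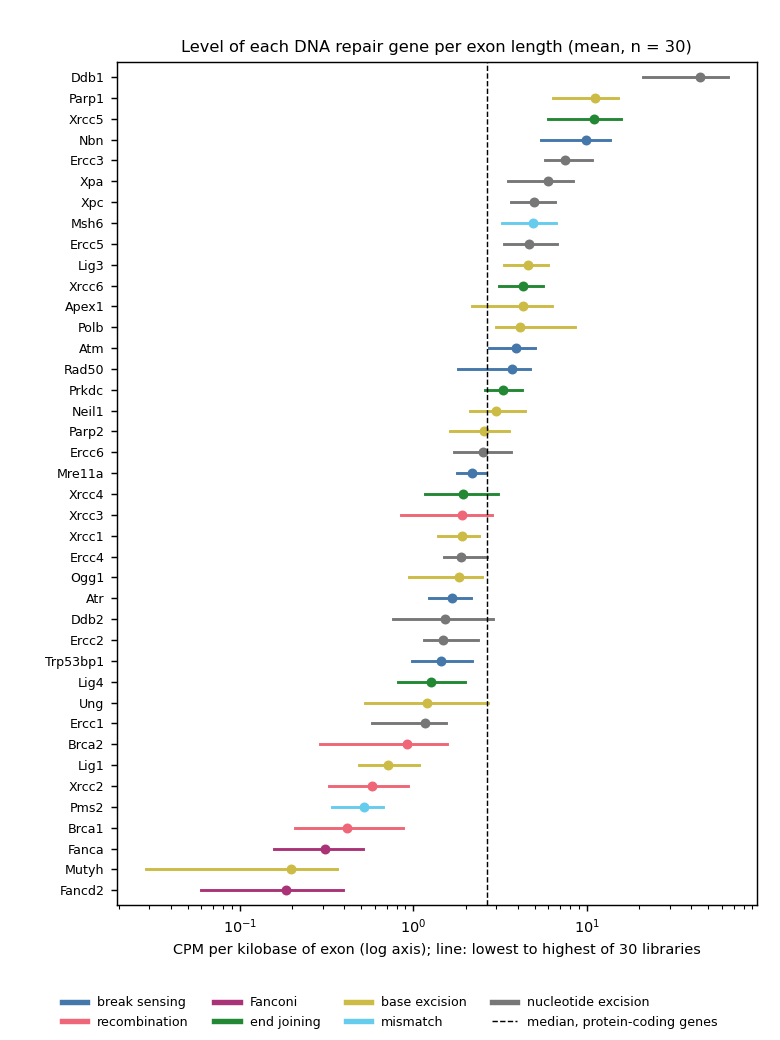
CPM per kilobase of exon (horizontal, log axis) for the 40 DNA repair genes, ordered by mean. Points are means over 30 libraries, lines run from the lowest to the highest library, colours are repair pathways and the dashed line is the median of protein-coding genes tested. Ddb1 at 44.8 lies apart from Parp1 at 11.2, and Fancd2 is lowest at 0.185.

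Counts assigned to genes came to 7995248 to 20215995 per library. The libraries of months 1 and 2 differed in composition from the later ones. The non-coding transcript Gm26917 took 3.04% to 7.57% of counts in the first set and 0.452% to 2.04% in the second, and in months 1, 2 and 4 its mean share was also higher in the irradiated arm (6.77 against 4.10%, 5.65 against 4.03% and 0.915 against 0.490%). Of 6 hepatocyte markers, all were detected in all 30 libraries, and their summed level was 29979 to 73656 CPM in months 1 and 2 and 67467 to 98834 CPM later. At month 12 the libraries numbered 2 stood apart from the other 2 of their group in both arms (chi-square per gene 91.0 to 105, against 17.3 and 22.5 between the other 2). In whole tissue, fewer cells of a type and less RNA per cell cannot be told apart. The p-values below reflect only how far samples of 1 group spread. Clock genes, which follow the time of day, also differed between arms: of 20 tested, 13 were called at month 1, 5 at month 2 and none later, and 10 were called from month 1 to month 2 in control livers. Of all genes, 4.6% were called at month 1, 4.37% at month 2 and 9.8% in that control step. The hour of collection is not given in the sources used here, and its part in the results at months 1 and 2 was not tested.

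Irradiation was set against no irradiation at each month, in a fit of all 30 libraries with edgeR's quasi-likelihood test and Benjamini-Hochberg adjustment over 19685 genes. A gene is called where its adjusted p is under 0.05. By this fit few repair genes were called. At month 1 none of the 40 was called, against 4.6% of all genes called, 1.49% higher and 3.11% lower. At month 2 Prkdc alone was called, and it was higher, against 4.37% of all genes called, 2.57% higher and 1.8% lower. At months 4, 9 and 12 none was called, against 3.6%, 1.66% and 0% of all genes. Of all genes, 1.82% were called higher and 1.77% lower at month 4, and 1.16% higher and 0.498% lower at month 9. At an unadjusted p under 0.05 the numbers were 6, 7, 6, 7 and 1 of 40 at the successive months, where the same threshold took 16.9%, 21.6%, 19.1%, 16.1% and 13.5% of all genes. DESeq2 called 2, 1, 2, 2 and 0 of the 40 at these months, against 10.1%, 9.09%, 8.85%, 6.83% and 1.2% of all genes. Limma voom called 4, 5, 4, 1 and 0, against 10.2%, 18.6%, 10.2%, 4.26% and 0.0356%. In fits of the 6 compared libraries alone 5 were called at month 2, where 18.5% of all genes were, and 3 at month 4, where 12% were.

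The sizes of the differences were small for most members. The median log2 fold change of the 40 was -0.05 at month 1, 0.10 in month 2, -0.06 in month 4, -0.05 in month 9 and -0.05 in month 12. The medians of all genes were -0.03, -0.02, 0.04, 0.00 and -0.02. The 95% interval lay wholly within a 2-fold change either way for 35, 35, 33, 36 and 37 of the 40 genes. Averaged over the 5 months, it lay within 1.5-fold for 37 genes and within 2-fold for all 40. The intervals of Mutyh, Fancd2 and Ung ran beyond a 2-fold change at every month.

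**Figure D2:**
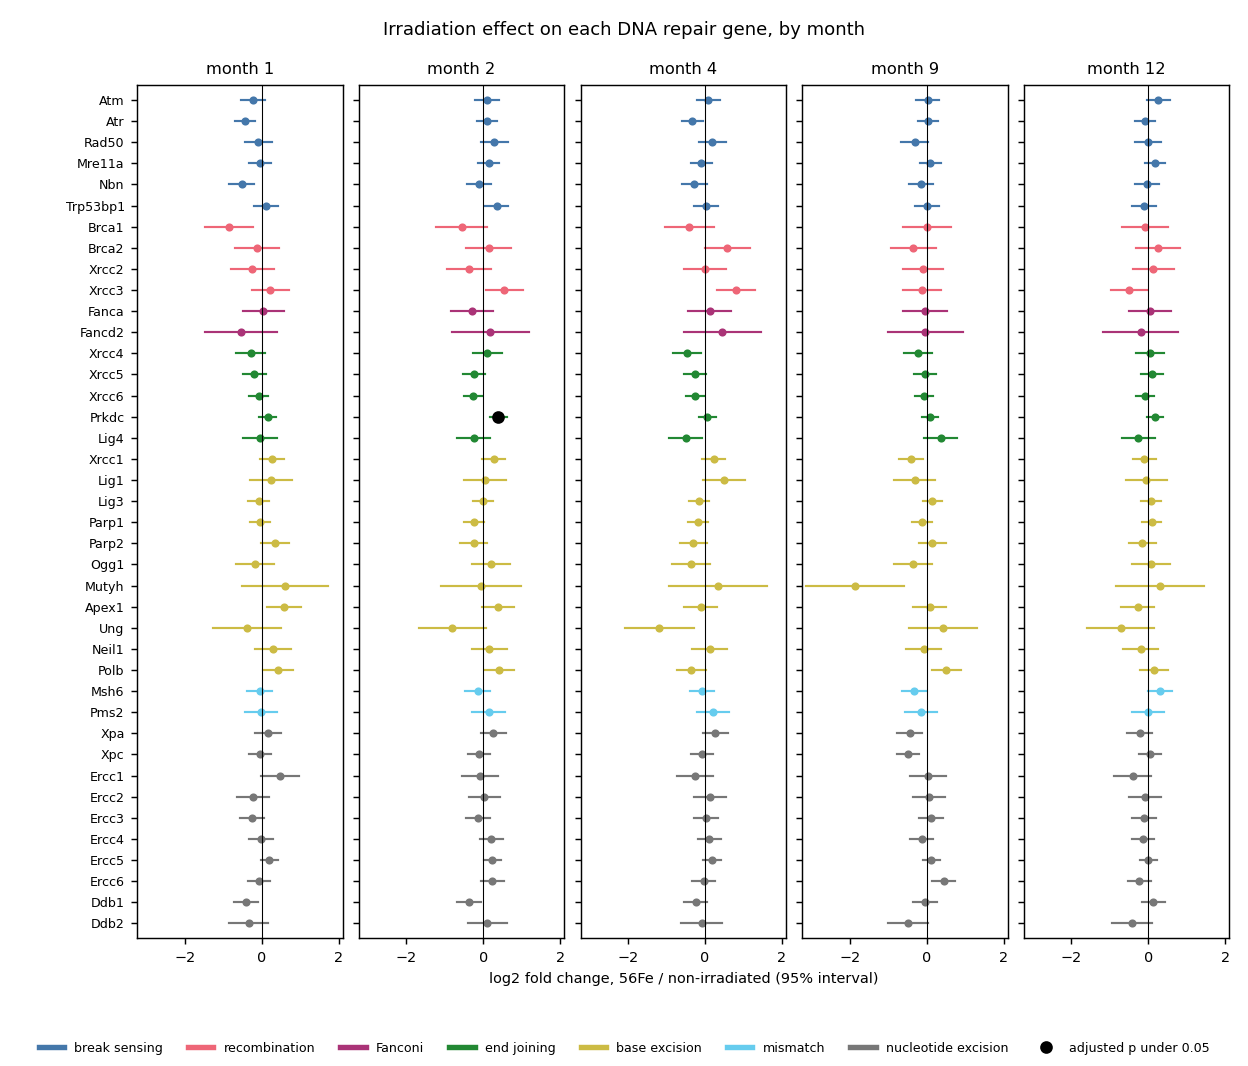
Log2 fold change of irradiated over non-irradiated livers (horizontal) for each DNA repair gene (rows), in 1 panel per month. Points are estimates, lines are 95% intervals, colours are pathways, and a large black point is an adjusted p under 0.05. Prkdc at month 2, at 0.39, is the sole black point.

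Without regard to a test, groups can be read by whether their 3 and 3 libraries overlap. At month 1, 3 members had all irradiated libraries above all controls (8.71% of all genes) and 3 had them below (9.92%). At month 2 the numbers were 7 above (15.6%) and 7 below (18.6%), at month 4 they were 6 above (14.3%) and 10 below (15.9%), at month 9 they were 2 above (9.4%) and 6 below (8.77%), and at month 12 they were 2 above (7.74%) and 3 below (7.78%). Of the 40, the share was highest at month 4 below controls, with Atr, Ddb1, Nbn, Parp1, Parp2, Polb, Ung, Xrcc4, Xrcc5 and Xrcc6.

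Among the end joining genes, Prkdc was higher in irradiated livers. It lies on chromosome 16 (15637866 to 15842235, GRCm38) and codes for the catalytic subunit of DNA-dependent protein kinase, which the Ku pair of Xrcc5 and Xrcc6 brings to a broken end. At month 2 its level was 38.3, 34.1 and 37.7 CPM in control livers and 46.4, 50.9 and 47.0 CPM in irradiated livers. All irradiated libraries lay above all controls. The log2 fold change was 0.39 ± 0.11 (SE, n = 3 per group; 1.31-fold; 95% interval 0.17 to 0.61; edgeR adjusted p = 0.0359). Leaving out any of the 6 libraries ended the call, with fold changes from 0.33 to 0.43 and adjusted p from 0.0698 to 0.207, so direction and size held and the call did not. It was also lost with the Gm26917 level as a covariate (0.39, adjusted p = 0.230) and with no low-count filter (0.36, adjusted p = 0.395).

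By edgeR, Prkdc was the sole member called in the mean effect over the 5 months, where 5.26% of all genes were called, 2.44% higher and 2.81% lower. DESeq2 called 4 members there, 2 higher and 2 lower (10.2% of all genes): Ddb1, Ercc5, Prkdc and Ung. Limma voom called 9, 3 higher and 6 lower (13.6%): Brca1, Ddb1, Ercc5, Nbn, Polb, Prkdc, Ung, Xrcc5 and Xrcc6. The effect on Prkdc was positive throughout, with 0.16, 0.06, 0.08 and 0.17 in months 1, 4, 9 and 12. The mean was 0.17 ± 0.05 (SE; edgeR adjusted p = 0.0327), and 12 of 30 fits with a library left out kept the call. Without control replicate 3 of month 1, 4 members were called: Prkdc, Ddb1, Nbn and Xrcc6 (11.5% of all genes). Without the libraries numbered 2 of both arms at month 12, the mean for Prkdc was 0.16 (adjusted p = 0.0710). Within months 1 and 2 the mean was 0.27 ± 0.08 (adjusted p = 0.0184) and within months 4, 9 and 12 it was 0.11 ± 0.06 (adjusted p = 0.562). The difference between months was not itself called (adjusted p = 0.403). In control livers Prkdc was lower at month 2 than at month 1 (36.7 ± 2.29 against 46.2 ± 0.905 CPM, SD; log2 fold change -0.33 ± 0.11; adjusted p = 0.0446). That call was lost in each fit with 1 of these libraries left out. The 3 control libraries of month 2 enter both this difference and the irradiation effect at month 2. In irradiated livers the same step was from 51.5 ± 4.29 to 48.1 ± 2.42 CPM (log2 fold change -0.10, adjusted p = 0.749).

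Markers of other cells gave these values beside the Prkdc result. The summed hepatocyte markers were 65496 to 73656 CPM in control and 53355 to 64018 CPM in irradiated livers at month 2, and summed erythroid markers 103 to 137 and 70.4 to 81.5 CPM. Neither pair of ranges overlapped, and their part in the difference was not tested. The start of Mcm4, a subunit of the replication helicase, lies 466 bases from that of Prkdc on the other strand. Its level at month 2 gave a log2 fold change of -0.30 ± 0.25 (adjusted p = 0.522), so the neighbour did not share the call.

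The other end joining genes leaned the other way without passing by edgeR. Limma voom called Xrcc6 at month 2 (18.6% of all genes) and Xrcc4 at month 4 (10.2%), and DESeq2 called neither. Xrcc6 (Ku70) had a negative effect at each of the 5 months, from -0.27 at month 2 to -0.07 at month 9, and a mean of -0.15 ± 0.05 (adjusted p = 0.0785). Xrcc5 ranged from -0.26 at month 4 to 0.10 at month 12. Xrcc4, the scaffold of the ligating complex, was 9.78, 10.9 and 13.03 CPM in control and 8.36, 9.39 and 6.44 CPM in irradiated livers at month 4. The irradiated libraries were all below the controls there, and the log2 fold change was -0.48 ± 0.18 (adjusted p = 0.130). Lig4, the ligase of the complex, lay between -0.51 at month 4 and 0.36 at month 9.

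**Figure D3:**
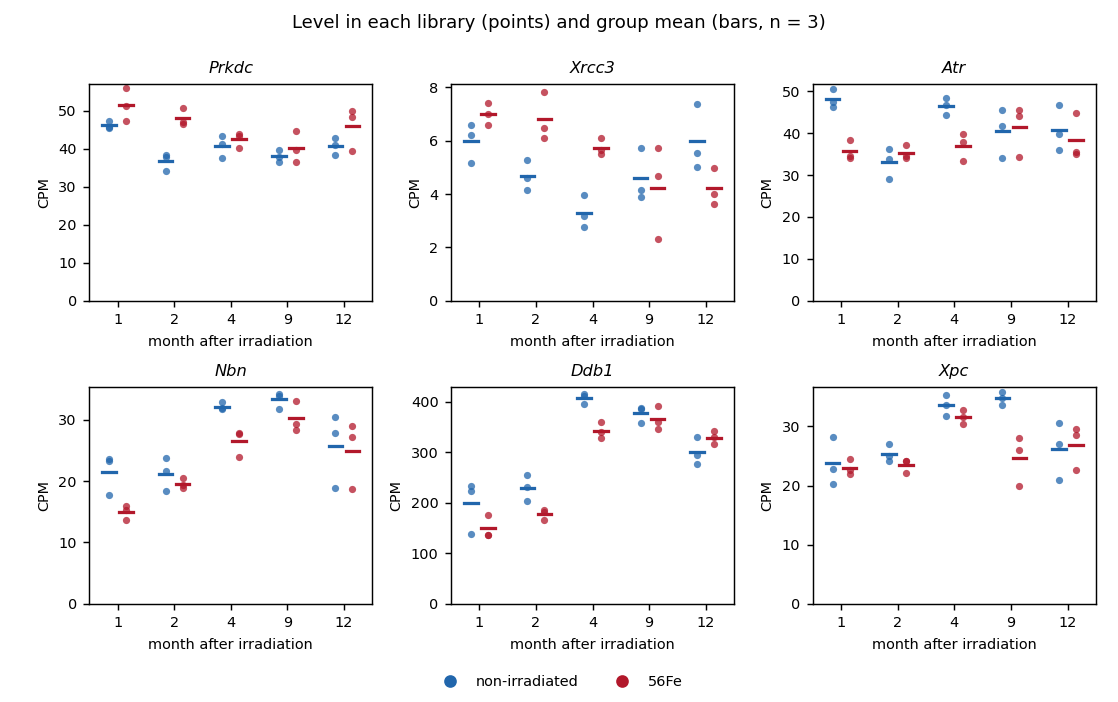
CPM (vertical, from 0) of Prkdc, Xrcc3, Atr, Nbn, Ddb1 and Xpc in each of the 30 libraries by month after irradiation (horizontal). Each point is 1 library and each short line the mean of its group, with control livers in blue and 56Fe livers in red. At month 2 the irradiated Prkdc points, 46.4 to 50.9 CPM, lie above the controls at 34.1 to 38.3 CPM, and the Ddb1 points of months 4, 9 and 12 all lie above those of months 1 and 2.

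Among the break sensing and signalling genes the lowest p-values of month 1 were found. Atr, the kinase that answers single-stranded DNA, was 47.3, 50.6 and 46.3 CPM in control and 34.1, 38.3 and 34.5 CPM in irradiated livers. Nbn, the subunit that recruits Atm to breaks, was 23.5, 23.3 and 17.8 CPM in control and 15.4, 15.99 and 13.7 CPM in irradiated livers. For both genes the irradiated libraries were all below the controls. Neither passed by edgeR, with log2 fold changes of -0.43 ± 0.13 (adjusted p = 0.0545) and -0.52 ± 0.16 (adjusted p = 0.0553). DESeq2 called both and no other member (10.1% of all genes). Limma voom called both, with Brca1 and Ddb1 (10.2%). Neither was called with other factors or filters, the replicate block, the Gm26917 covariate or the 6 libraries alone. Without control replicate 3 of month 1, which held 6.09% Gm26917 against 3.17 and 3.04% in its group, 3 members were called at month 1, namely Atr, Nbn and Ddb1, against 9.15% of all genes. Nbn was negative at each month, with a mean of -0.22 ± 0.07 (adjusted p = 0.0604). Atr was negative at 3 of 5 months. For Atr, reads of overlapping genes on the other strand may be counted, since 1188 exon bases are shared with 2 such genes, 1700065D16Rik and Gm16794, and the strand setting is not given in the sources used here.

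The remaining members of this pathway showed smaller differences. Atm, the kinase that answers double-strand breaks, lay between -0.23 at month 1 and 0.26 at month 12. Mre11a, the nuclease of the sensing complex, lay between -0.10 and 0.17, and Rad50, its partner, between -0.31 and 0.28. Trp53bp1, which favours end joining over recombination, reached 0.34 at month 2 and was between -0.11 and 0.12 at the other months.

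In homologous recombination the member that stood out was Xrcc3, which acts in the repair of breaks by strand exchange (chromosome 12, 111803192 to 111813873). Its difference between arms varied with the month, by an F-test of the 4 differences among the 5 irradiation effects (edgeR adjusted p = 0.0432), where 11% of all genes were called and no other member was. Control livers gave means of 5.99, 4.67, 3.30, 4.59 and 5.98 CPM at the successive months, and irradiated livers 7.002, 6.80, 5.74, 4.23 and 4.21 CPM. Control values were thus lowest at month 4, while irradiated values were lowest at months 9 and 12. At month 4 the libraries were 2.75, 3.96 and 3.17 CPM in control and 5.48, 6.10 and 5.64 CPM in irradiated livers. At month 12 they were 5.56, 5.01 and 7.37 CPM in control and 4.98, 3.64 and 4.02 CPM in irradiated livers. The irradiated libraries were all above at month 4 and all below at month 12.

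The single-month differences of Xrcc3 did not pass in the edgeR fit of all 30 libraries. The log2 fold changes were 0.22 ± 0.23, 0.54 ± 0.23, 0.79 ± 0.24, -0.12 ± 0.24 and -0.51 ± 0.23 (SE), with adjusted p of 0.727, 0.170, 0.0592, 0.862 and 0.341. At month 4 Xrcc3 was called by DESeq2 (8.85% of all genes), limma voom (10.2%), upper quartile factors (4.29%) and the 6 compared libraries alone (12%). It was not called there with RLE factors, the other filters, the replicate block or the Gm26917 covariate. The 6 libraries alone also called Xrcc3 at month 2 (18.5%). Within months 4, 9 and 12 alone the variation was also called (adjusted p = 0.0336), and between months 1 and 2 it was not (adjusted p = 0.762). Control livers changed over months 4 to 12 in Xrcc3 (adjusted p = 0.0315), the sole member called there, against 20.2% of all genes. That call was kept in 4 of 9 edgeR fits with a library left out (adjusted p 0.0332 to 0.204). Without control replicate 1 of month 4, Xpc was called in its place (16.9% of all genes). In irradiated livers 0 of 40 were called over those months by edgeR, against 2.93%, with 8 at an unadjusted p under 0.05, where 19.0% of all genes were, and 2 by DESeq2, where 9.51% were. With 1 library left out, 6 of 30 fits kept the call on the variation (adjusted p 0.0170 to 0.137). Without irradiated replicate 2 of month 9, 5 members were called: Msh6, Polb, Xpa, Xrcc1 and Xrcc3 (15.5% of all genes). The replicate number as a block ended the Xrcc3 call (adjusted p = 0.0560), as did leaving out the libraries numbered 2 of both arms at month 12 (adjusted p = 0.0752). The Gm26917 covariate ended the Xrcc3 call (adjusted p = 0.519). Xrcc3 had 34 to 120 counts in a library.

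Other recombination genes differed in sign and size. Brca1, which steers breaks to recombination, had effects of -0.85, -0.57, -0.41, 0.01 and -0.09, and a mean of -0.38 ± 0.14 (adjusted p = 0.0966). Brca2, a breast cancer susceptibility gene of the same pathway, ran from -0.35 at month 9 to 0.58 at month 4. Xrcc2, of the same pathway, ran from -0.37 to 0.13. The Fanconi anaemia genes Fanca and Fancd2, which act on crosslinks between strands, lay between -0.30 and 0.12 and between -0.54 and 0.45.

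Base excision genes gave the widest spread. Ung, the uracil glycosylase, was 11.7, 6.52 and 6.77 CPM in control and 4.32, 3.22 and 3.42 CPM in irradiated livers at month 4. The groups did not overlap, and the log2 fold change of -1.19 ± 0.43 had an edgeR adjusted p of 0.128. Ung was called at month 4 by DESeq2 (8.85% of all genes), by limma voom (10.2%) and in the 6 libraries alone (12%). Ung was not called there with other factors or filters, the replicate block or the Gm26917 covariate. Its effect was negative at 4 of 5 months, with a mean of -0.54 ± 0.19 (adjusted p = 0.0956). Mutyh at month 9 had the largest difference of any member and month, -1.86 ± 0.62 (adjusted p = 0.113), on 9 to 15 counts in control and 1 to 3 counts in irradiated livers. Polb, the gap-filling polymerase, was positive at 4 of 5 months with a mean of 0.23 ± 0.08 (adjusted p = 0.0941). Apex1, the abasic site nuclease, was 0.57 at month 1 and 0.38 at month 2 and between -0.28 and 0.07 later. It shares 877 of its 1422 exon bases with Pip4p1 on the other strand, so its counts may hold reads of that gene. In the mean over months 1 and 2 alone 5 members were called: Apex1, Polb and Prkdc higher, and Brca1 and Ddb1 lower, where 10.4% of all genes were called. In the mean over months 4, 9 and 12 none was, where 0.0203% of all genes were.

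The other genes of single-strand break and base excision repair moved less. Parp1 lay between -0.23 and 0.08, Lig3 between -0.16 and 0.15, Xrcc1, the scaffold, between -0.41 and 0.27, and Neil1, a glycosylase of oxidised bases, between -0.20 and 0.30. Parp2 ran from -0.31 to 0.35, Ogg1, which removes oxidised guanine, from -0.37 to 0.20, and Lig1 from -0.32 to 0.49. In mismatch repair, Msh6 ran from -0.32 at month 9 to 0.29 at month 12, and Pms2 from -0.16 to 0.20. At month 12 Msh6 was 20.7, 17.1 and 21.5 CPM in control and 24.8, 23.4 and 24.5 CPM in irradiated livers, which did not overlap (log2 fold change 0.29 ± 0.15, adjusted p = 0.402).

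Nucleotide excision repair held the lowest p-values of month 9. Xpc, which finds distorted helix, was 34.8, 35.8 and 33.6 CPM in control and 19.9, 28.1 and 25.9 CPM in irradiated livers, a log2 fold change of -0.49 ± 0.14 (adjusted p = 0.0591). Ercc6, which frees polymerases stalled at lesions, was 23.9, 24.98 and 24.9 CPM in control and 38.0, 28.1 and 34.2 CPM in irradiated livers, a log2 fold change of 0.44 ± 0.15 (adjusted p = 0.111). Neither pair of groups overlapped, and the 2 genes of 1 pathway differed in sign. These adjusted p are from edgeR. DESeq2 called both genes at month 9 (6.83% of all genes), and limma voom called Xpc (4.26%). Neither was called with other factors or filters, the replicate block, the Gm26917 covariate or the 6 libraries alone. Without irradiated replicate 2 of month 9, 5 members were called at that month: Ercc6, Msh6, Polb, Xpa and Xpc, against 6.91% of all genes. At the other months Xpc stayed between -0.11 and 0.04.

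Ddb1 was lower in irradiated livers at the early months without passing by edgeR. Limma voom called Ddb1 at months 1 and 2 (10.2% and 18.6% of all genes), and DESeq2 at neither. The 6 libraries alone called it at month 2 (18.5%) and not at month 1. At month 1 it was 224, 233 and 139 CPM in control and 136, 176 and 135 CPM in irradiated livers, and the groups overlapped through 1 control library. At month 2 it was 255, 202 and 231 CPM against 184, 181 and 165 CPM, with no overlap. The log2 fold changes were -0.41 ± 0.15 (adjusted p = 0.123) and -0.38 ± 0.15 (adjusted p = 0.133). Ercc5, the nuclease that cuts on the 3′ side of a lesion, was positive at each month with a mean of 0.15 ± 0.05 (adjusted p = 0.0748). Ercc1, its counterpart in the 5′ cut, was 3.17, 3.52 and 4.42 CPM in control and 2.62, 3.00 and 2.73 CPM in irradiated livers at month 12 (log2 fold change -0.41 ± 0.23, adjusted p = 0.443). The remaining genes of the pathway, Xpa, Ercc2, Ercc3, Ercc4 and Ddb2, had effects between -0.49 and 0.26.

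A wider list of 106 other DNA repair genes was tested. Called were 4.72% of them at month 1, 4.72% at month 2 and 3.77% at month 4, beside 4.6%, 4.37% and 3.6% of all genes. The irradiation effect differed between months in 11 of 106 (10.4%, beside 11% of all genes), and 17 changed over months 4 to 12 in control livers (beside 20.2% of all genes). At month 1, 5 were called: Mad2l2 (0.96 ± 0.18, adjusted p = 0.00231), Shld2 (0.80 ± 0.21) and Rad9a (0.91 ± 0.25) were higher, and Shld1 (-1.06 ± 0.23, adjusted p = 0.00773) and Rev1 (-0.74 ± 0.19) lower. Mad2l2, Shld1 and Shld2 are partners in shieldin, a complex that protects broken ends from resection, and 2 of the 3 rose while the third fell. At month 2, 5 were called: Gtf2h2 (0.58 ± 0.12), Poli and Pms1 higher, and Gtf2h1 (-0.55 ± 0.15) and Usp1 lower. Gtf2h1 and Gtf2h2 are subunits of the same transcription and excision repair factor, TFIIH. At month 4, 4 were called and all were lower: Rnf168 (-0.54 ± 0.11, adjusted p = 0.0101), Cdk7, Rad17 and Rad23b. At months 9 and 12 edgeR called 0 of 106, beside 1.66% and 0% of all genes. The median log2 fold changes of the list lay between -0.07 and 0.03 over the 5 months.

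Lists of replication and p53 target genes are given for context. Of 22 S phase and mitosis genes, 1 was called lower at month 1 (Ccne1), 1 higher at month 2 (E2f8) and none later. Of all genes, 4.6% were called at month 1 and 4.37% at month 2. Of 16 p53 targets, Cdkn1a, the cell cycle inhibitor, was called at month 1: it was 0.267, 0.636 and 0.470 CPM in control and 4.79, 4.26 and 8.48 CPM in irradiated livers (log2 fold change 3.69 ± 0.69, adjusted p = 0.00297). In control livers it was 5.80 ± 0.508 CPM (SD) at month 2, and the control livers of month 1 were the lowest of the 10 groups. At month 9, 3 p53 targets were called, all lower: Plk2, Sesn2 and Gdf15. These counts stand beside 0 repair genes called at months 1 and 9.

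More repair genes were called between sets of months than with irradiation at a single month, and the same was so for all genes. The comparisons differ in size, since irradiation at a month was tested on 3 and 3 libraries. Later livers (months 4, 9 and 12, 18 libraries of both arms) were set against earlier ones (months 1 and 2, 12 libraries). Of the 40 genes, 26 were called, 13 higher and 13 lower, where 72.4% of all genes were called, 34% higher and 38.4% lower. The median log2 fold change of the 40 was -0.0013 and that of all genes -0.12. Batch was not named in the labels, and the composition of the libraries changed between the same sets of months, so time and composition cannot be told apart here. Beside the hepatocyte and Gm26917 values given above, Malat1 took 0.470% to 1.13% of counts in months 1 and 2 and 0.175% to 0.427% later. Summed stellate and fibroblast markers were 153 to 235 CPM and 223 to 354 CPM, and summed erythroid markers 54.8 to 137 CPM and 109 to 433 CPM. Their part in the result was not tested. With upper quartile factors the median of all genes went to -0.41, and 5 members were called higher and 23 lower. With the Gm26917 covariate none of the 40, and none of all genes, was called by edgeR, and the direction turned for 15 of the 26.

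**Figure D4:**
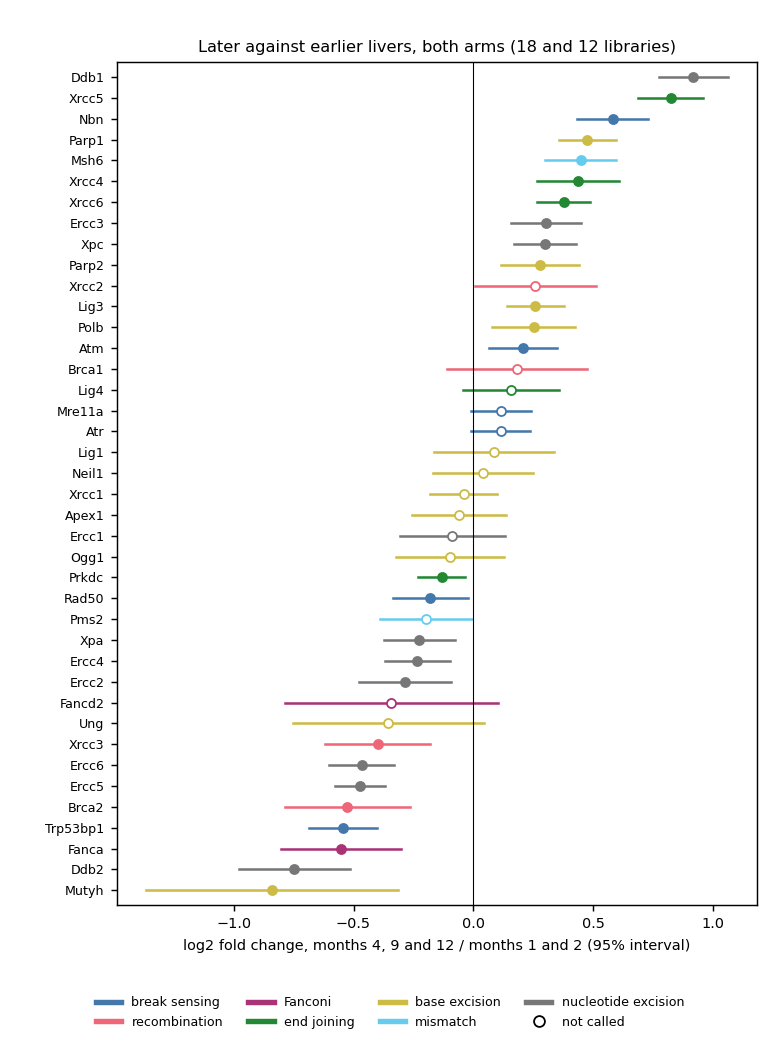
Log2 fold change of months 4, 9 and 12 over months 1 and 2 (horizontal) for the 40 DNA repair genes, ordered by size. Points are estimates, lines are 95% intervals, filled points are called, open points are not, and colours are pathways. Ddb1 at 0.92 and Xrcc5 at 0.82 lead, Mutyh at -0.84 and Ddb2 at -0.75 are lowest, and 13 genes were called on each side.

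The end joining genes were mostly higher in later livers. Xrcc5 was 15.2 to 23.4 CPM (median 19.6) in the 12 earlier and 25.4 to 40.3 CPM (median 34.4) in the 18 later libraries. Complete separation of the sets, with the later above, was seen in Xrcc5 and Ddb1 of the 40 genes and in 7.21% of all genes, and the reverse in 0 of 40 and 1.29%. Its log2 fold change was 0.82 ± 0.07 (adjusted p = 7.0e-12). Its partner Xrcc6 rose less, by 0.38 ± 0.05, from 14.02 to 18.6 CPM (median 16.4) to 17.1 to 24.9 CPM (median 21.6). Xrcc4 rose by 0.44 ± 0.08, from a median of 6.70 to 9.08 CPM. Prkdc, in contrast, was lower by a small amount (-0.13 ± 0.05, adjusted p = 0.0161), with medians of 46.7 and 40.6 CPM. Lig4 was not called. Of 5 end joining genes, 3 were called higher and 1 lower, where 34% of all genes were called higher and 38.4% lower.

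Nucleotide excision repair was split, with 9 of 10 genes called, 3 higher and 6 lower. Of all genes, 72.4% were called, 34% higher and 38.4% lower. Ddb1 rose from 135 to 255 CPM (median 183) to 276 to 414 CPM (median 351), again with no overlap, and its log2 fold change was 0.92 ± 0.07 (adjusted p = 1.8e-12). Ddb2, its partner in recognising ultraviolet lesions, fell by 0.75 on the log2 scale (SE 0.11), from a median of 5.29 to 3.06 CPM. The 2 subunits of that complex therefore moved in opposite directions. Xpc and Ercc3, a helicase of TFIIH, each rose by 0.30. Ercc5 (-0.47 ± 0.05, medians 31.6 and 23.2 CPM), Ercc6 (-0.47 ± 0.07, medians 37.3 and 27.7 CPM), Ercc2, Ercc4 and Xpa were lower. Ddb1 shares 328 exon bases with Tkfc on the other strand and Ddb2 652 with Acp2. Ercc2 shares 1769 of its 4170 exon bases with Gm26852 and Klc3. The counts of Ddb1, Ddb2 and Ercc2 may thus hold reads of those genes. Tkfc rose by 0.25 ± 0.10.

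Break sensing genes also differed among themselves. Nbn rose from 13.7 to 23.7 CPM (median 19.1) to 18.8 to 34.3 CPM (median 29.2), a log2 fold change of 0.58 ± 0.07. Atm rose by 0.21 ± 0.07, from a median of 36.6 to 43.2 CPM, but its direction turned with upper quartile factors (-0.087) and with the Gm26917 covariate (-0.68). Rad50 was lower (-0.18 ± 0.08, adjusted p = 0.0381, medians 21.6 and 19.1 CPM), and Trp53bp1 was lower (-0.54 ± 0.07, medians 24.2 and 17.1 CPM). Trp53bp1 shares 2130 of its 14164 exon bases with Tubgcp4 on the other strand, so its counts may hold reads of that gene. Atr and Mre11a were not called. Nbn and Rad50, subunits of 1 complex with Mre11a, thus had opposite signs.

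The recombination and Fanconi genes that were called were all lower, where 34% of all genes were called higher and 38.4% lower. These were Brca2 (-0.53 ± 0.13, medians 15.4 and 11.1 CPM), Xrcc3 (-0.40 ± 0.11, medians 6.33 and 4.82 CPM) and Fanca (-0.55 ± 0.12, medians 3.23 and 2.29 CPM). Fanca shares 920 of its 8761 exon bases with Zfp276 on the other strand, so its counts may hold reads of that gene. Brca1, Xrcc2 and Fancd2 were not called. In base excision repair 4 of 11 genes were called higher, beside 34% of all genes. Parp1 led (0.48 ± 0.06, from 33.8 to 61.2 CPM, median 48.7, to 50.1 to 80.3 CPM, median 66.8), followed by Parp2, Lig3 and Polb. With upper quartile factors the direction turned for Parp2 (-0.015), Lig3 (-0.039) and Polb (-0.049), and with the Gm26917 covariate for Parp1 (-0.24) and Parp2 (-0.66), none of them called. Lig3 shares 1826 of its 7284 exon bases with Rffl on the other strand, so its counts may hold reads of that gene. Mutyh was lower (-0.84 ± 0.26, medians 0.700 and 0.405 CPM), and the other 6 genes of the pathway were not called. Msh6 rose by 0.45 ± 0.07 and Pms2 was not called.

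**Figure D5:**
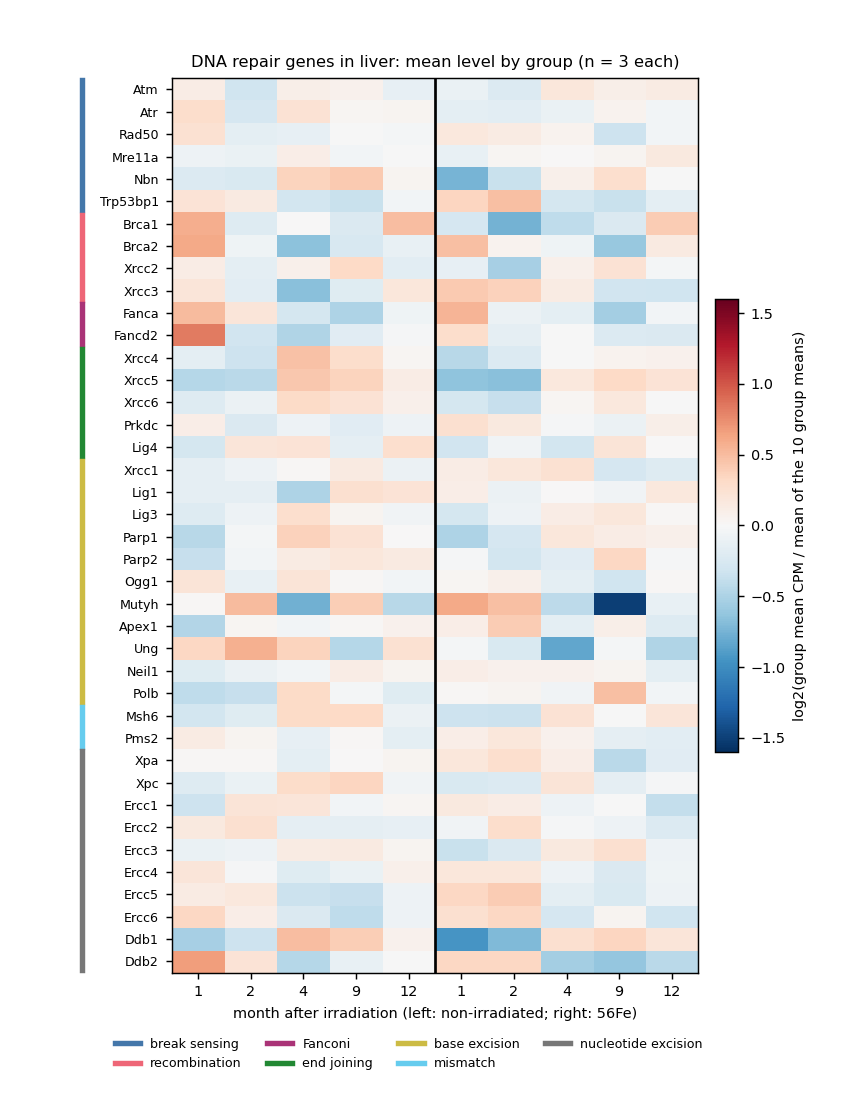
Log2 of each group's mean CPM over the mean of the 10 group means (colour) for the 40 DNA repair genes (rows, by pathway as coloured bars at the left) in the 5 control groups and the 5 irradiated groups (columns, by month). Ddb1, Xrcc5 and Nbn are blue in months 1 and 2 and red in months 4 and 9 of both arms, and Ddb2 and Ercc5 show the reverse.

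Tested within each arm over the 5 months, 20 repair genes changed in control livers (58.3% of all genes) and 23 in irradiated livers (59%). Of these, 18 were called in both arms, and 17 of the 18 were also called between the sets of months. The exception was Brca1. Atr and Xrcc4 passed in control livers and not in irradiated ones, and Ercc3, Mutyh, Prkdc, Xpa and Xrcc1 the other way round. That the arms differed for these genes was not shown by the test of the difference, in which Xrcc3 alone passed. In 11 genes no change with time was called in any of the 3 tests: Apex1, Ercc1, Fancd2, Lig1, Lig4, Mre11a, Neil1, Ogg1, Pms2, Ung and Xrcc2.

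The step from month 1 to month 2 lay within the earlier set. In control livers 3 members were called (9.8% of all genes, 5.75% higher and 4.05% lower): Atr was lower (48.1 ± 2.27 to 33.1 ± 3.61 CPM, SD; log2 fold change -0.54; adjusted p = 0.0095), Prkdc was lower as given above, and Parp1 was higher (43.4 ± 8.51 to 57.8 ± 3.15 CPM; 0.41; adjusted p = 0.0367). In irradiated livers edgeR and DESeq2 called 0 members, against 0.00508% of all genes by edgeR, and 2 had an unadjusted p under 0.05, where 12.1% of all genes did. The control libraries of month 1 enter both the step in control livers and the irradiation effect at month 1. For Atr, irradiated livers were 35.6 ± 2.34 CPM at month 1 and 35.3 ± 1.77 CPM at month 2, near the control level of month 2. With 1 library left out, the control step called Atr, Ercc1 and Parp1 without control replicate 1 of month 1 (9.02% of all genes). It called 0 members without control replicate 2 of month 2, and Atr alone in the other 4 fits. Prkdc thus kept its call in none of these fits.

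The difference between later and earlier livers followed the level of the gene. Across the 40 genes its Spearman correlation with mean CPM was 0.45, and across 14910 protein-coding genes it was 0.55. With exon length the values were -0.19 and -0.19. Genes share libraries and are not independent, so these are descriptions. Of the 40 genes, 15 start within 1000 bases of a gene on the other strand, and 13 of these neighbours were tested. In 6 pairs both genes were called, 3 in the same and 3 in opposite directions. Xrcc3 (-0.40) and Zfyve21 (0.42 ± 0.09), 297 bases apart, and Prkdc (-0.13) and Mcm4 (0.80 ± 0.12) were opposite, while Xrcc4 (0.44) and Tmem167 (0.88 ± 0.06) moved the same way. These pairs were chosen after the values were seen. In the list of other DNA repair genes, 72 of 106 were called between the sets of months (67.9%, beside 72.4% of all genes), 42 higher and 30 lower. Those with the smallest p were Rad23b (1.04 ± 0.07), Rpa1 (0.98 ± 0.08), Gtf2h1 (0.84 ± 0.07), Pcna (0.72 ± 0.06) and Rnf168 (0.63 ± 0.05).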

How the data were processed

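RNA-seq counts of 30 mouse livers were used, 3 in each of 10 groups. The authors deposited unnormalised counts of reads for each Ensembl identifier. The series' design text states frozen sections, depletion of ribosomal RNA, paired reads of 50 bases, STAR 2.5.3a on GRCm38 and gene counts on Gencode M14. The strand setting is not given in the sources used here. Of the 40 genes, 20 share exon bases with a gene on the other strand. The design text gives more reads than the totals here, and this was not resolved. Symbols, coordinates and exon lengths came from Gencode M21 (51633 identifiers matched, 193 not).

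Tests used edgeR 4.0.16 (R 4.3.3) with filterByExpr (minimum count 10, total 15), TMM factors, a robust quasi-likelihood fit with 1 coefficient per group, and Benjamini-Hochberg adjustment over all 19685 genes. SE is the absolute log2 fold change over the square root of F. Values per library are given for called genes and, where fewer than 3 were called in an irradiation comparison, for the 3 with the smallest p. Of the other DNA repair genes at most 5 per comparison are named. The 40 genes and all lists were chosen with earlier results of these data known. Of 108 other repair symbols 107 matched.

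Alternatives were RLE and upper quartile factors, no filter, 1 CPM in 3 libraries, a replicate block, the Gm26917 level as covariate, DESeq2 1.42.0, limma 3.58.1 voom with sample weights, a fit of just the 6 libraries compared, and omission of each library in turn. Contrasts within months 1 and 2 and within months 4, 9 and 12 were added after the data were seen. Same-number correlations of deviations between arms were -0.378 to 0.319, and 5 of 15 were above 0.1, so replicate numbers were not taken as pairs over the series. At month 12 all 3 were above 0.1 (0.167, 0.319 and 0.171), but control replicate 1 correlated more with another number (0.206) than with its own. The labels name no pairs, and whether that month is paired was not settled. A block within month 12, and a fit without its libraries numbered 2, were added after the data were seen. No 2 libraries of a group agreed within sampling noise (lowest chi-square per gene 8.60 over 30 pairs). Figures used Python 3.11.15 and matplotlib 3.10.9.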

Additional observations from a re-analysis of the deposited data

Results flagged for a closer look

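The irradiation effect on Xrcc3, a gene of homologous recombination, differed between months by the test of the difference itself (edgeR F-test, adjusted p = 0.0432). It was positive at months 1, 2 and 4, at 0.22, 0.54 and 0.79, and negative at months 9 and 12, at -0.12 and -0.51 on the log2 scale. Beside it, the share of Gm26917 in the libraries was higher in irradiated livers at months 1, 2 and 4 (6.77, 5.65 and 0.915% against 4.10, 4.03 and 0.490%), about even at month 9 (0.520 against 0.500%) and lower at month 12 (0.870 against 1.65%). The part of library composition in the result was not tested beyond the covariate fit, in which the adjusted p was 0.519. With the replicate number as a block it was 0.0560, and without both libraries numbered 2 of month 12 it was 0.0752.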

How the results depend on the processing

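Each count of called members was recomputed under every alternative. Counts outside 1.5 times the main value were as follows, with the share of all genes called in brackets. With RLE factors 4 members were called over months 4 to 12 in control livers (21.3%). With upper quartile factors 1 was called at month 4 (4.29%) and 3 in the mean effect (5.16%). There were 2 in its variation with month (12.3%) and 2 over months 4 to 12 in control livers (21.2%). With no filter 0 were called at month 2 (1.2%) and 0 in the mean effect (1.5%). There were 15 over months in irradiated livers (22.3%) and 0 from month 1 to 2 in control livers (2.92%). With 1 CPM in 3 libraries 2 were called in the mean effect (5.71%) and 5 over months 4 to 12 in control livers (25%). With DESeq2 2 were called at each of months 1, 4 and 9 (10.1%, 8.85% and 6.83%), 4 in the mean effect (10.2%) and 5 in its variation (26.2%). Over months 4 to 12 DESeq2 called 5 in control (23.9%) and 2 in irradiated livers (9.51%). With limma voom the numbers were 4, 5, 4 and 1 at months 1, 2, 4 and 9 (10.2%, 18.6%, 10.2% and 4.26%). They were 9 in the mean effect (13.6%) and 6 in its variation (22.4%). Limma voom called 3 and 1 over months 4 to 12 in control and irradiated livers (22.2% and 7.16%), and 8 from month 1 to 2 in control livers (12.1%). The 6 compared libraries alone gave 5 at month 2 (18.5%) and 3 at month 4 (12%). With the Gm26917 covariate 0 were called at month 2 (0.066%), in the mean effect (0.198%) and in its variation (3.02%). With that covariate 0 were also called over months in irradiated livers (0.31%), over months 4 to 12 in control livers (0.0102%) and between the sets of months (0%). Over months in control livers 1 was called (9.47%). The mean within months 1 and 2 gave 5 (10.4%), that within months 4, 9 and 12 gave 0 (0.0203%), and the variation between months 1 and 2 gave 0. The cause was not tested.

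Over the series the replicate numbers did not pair the samples (7 of 15 correlated best with their own number). With the replicate block 2 members were called in the mean effect, Brca1 and Prkdc (4.87% of all genes). Ercc6 was called in place of Xrcc3 in its variation with month (10.2% of all genes, Xrcc3 adjusted p = 0.0560), and other counts stayed within 1.5 times. With the replicate block within month 12 alone, 0 members were called at month 12, 3 at month 1, 1 at month 9 (Xpc), 4 in the mean effect and 3 over months 4 to 12 in control livers, and Xrcc3 kept its call (adjusted p = 0.0361). Without both month 12 libraries numbered 2, 0 were called at month 12, 1 at each of months 1, 4 and 9, and 2 in the mean effect, Brca1 and Nbn, with Prkdc lost, and Polb was called in place of Xrcc3 in its variation with month.

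With 1 library left out, members called ranged from 0 to 3 at month 1, 0 to 0 at month 2, 0 to 0 at month 4, 0 to 5 at month 9, 0 to 0 at month 12, 0 to 4 in the mean effect, 0 to 5 in its variation, 18 to 21 and 18 to 23 over months in control and irradiated livers, 0 to 1 and 0 to 4 over months 4 to 12, 0 to 3 and 0 to 0 from month 1 to 2, and 24 to 29 between the sets. The high ends came without control replicate 3 of month 1 (3 at month 1, 4 in the mean) and without irradiated replicate 2 of month 9 (5 at month 9, 5 in the variation, 4 over months 4 to 12 in irradiated livers). From month 1 to 2 in control livers, leaving out any of the 6 libraries except control replicate 1 of month 1 left 0 or 1.

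Between the sets of months the direction of 4 genes turned with upper quartile factors: Atm -0.087, Lig3 -0.039, Parp2 -0.015 and Polb -0.049. With the Gm26917 covariate 15 turned: Atm -0.68, Nbn -0.13, Trp53bp1 0.49, Xrcc3 0.27, Xrcc4 -0.84, Xrcc5 -0.29, Xrcc6 -0.024, Parp1 -0.24, Parp2 -0.66, Msh6 -0.26, Xpc -0.26, Ercc4 0.18, Ercc6 0.033, Ddb1 -0.087 and Ddb2 0.36. None of these was called. The Gm26917 share did not overlap between the sets of months (3.04% to 7.57% against 0.452% to 2.04%), so that fit cannot tell time from the covariate. Depth limits Mutyh and Fancd2 most.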
